A study of Homo sapiens with 37 samples.

Results

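SERPING1 and 5 further regulators of complement (CD46, CD55, CD59, CLU and C1QBP) were followed through all 37 libraries of the K562 experiment. They are 6 of the 32055 genes of the UMI table and were found by matching Ensembl identifiers to symbols. The set was assembled because SERPING1 was known to be much higher in the ZBTB7A KO libraries, so its difference between the groups is described without a test. The other 5 were named for their function, and their own levels did not enter the choice. K562 is an erythroid leukemia line, and ZBTB7A encodes a zinc finger transcription factor. The KO libraries come from cells electroporated with a Cas9-GFP plasmid carrying either of a pair of guide RNAs against ZBTB7A, and the control libraries from cells given the plasmid without a guide. GFP-sorted single cells were expanded before analysis, so each culture descends from 1 cell. The labels give 26 libraries as KO and 11 as Control, distinguished by a well barcode only. Which libraries share a clone or a guide is not stated, and p-values therefore measure the spread between libraries, which may be partly technical.

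Complement is a cascade of blood proteins in which C1, lectins or spontaneous C3 turnover lead to C3 convertases and at last to a pore of C5b to C9. Host cells are spared by regulators that act at separate steps. SERPING1 encodes C1 inhibitor, a secreted serpin that traps C1r and C1s and also the contact system proteases factor XIIa and kallikrein. CD46 is a cofactor for the cleavage of C3b and C4b, CD55 speeds the decay of the convertases, and CD59 stops C9 from entering the pore. CD55 and CD59 are held in the membrane by a GPI anchor. CLU (clusterin) is a secreted chaperone that binds the fluid-phase terminal complex, and C1QBP, which binds the globular heads of C1q, resides mainly in mitochondria.

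Total UMIs ranged from 563235 to 4710809 in the control and from 1070250 to 4270901 in the KO libraries, and mitochondrial transcripts made up 5.05% to 6.95% and 4.63% to 8.09% of them. Levels below are log2 CPM after TMM scaling with a prior count of 2. Because each captured molecule is counted from its 3′ end, the levels do not scale with transcript length. How well molecules are captured and assigned to a gene can still differ, so comparisons between genes are of counted levels only. Of 11 K562 markers 10 were measured, with a summed level of 3697 to 8581 CPM in control and 2900 to 9427 CPM in KO libraries. HBG1, HBG2 and GATA1 had medians between 251 and 2841 CPM in either group. Of 9 measured markers of other cells only EPCAM was abundant (median 252 CPM in control, 134 CPM in KO). The summed level of these 9 was 169.6 to 286.5 CPM in control and 100.3 to 212.8 CPM in KO, CD3E, CD79A, CD14 and PECAM1 had a median of 0 in both groups, and their part in the results was not tested. ZBTB7A itself was at a median of 56.4 CPM in control and 60.5 CPM in KO libraries, and 3′ counts do not show whether a gene was edited. The study assessed the edit by Western blot and sequencing, which are not analysed here. The KO-labelled library GGCCAC lay near the controls for SERPING1 and was the only KO library within the control range of EPCAM, and SERPING1 is given with and without it. In bulk RNA, fewer cells that express a gene and less RNA of it per cell cannot be told apart.

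SERPING1 (ENSG00000149131) lies on the plus strand of chromosome 11 from 57597387 to 57619171 (GRCh38). The control libraries held 2 to 11 UMIs of SERPING1 each with a median of 4, and the KO libraries 7 to 44 with a median of 22. Scaled to depth, control libraries lay between 0.65 and 2.13 log2 CPM with a median of 1.31, and KO libraries between 2.15 and 4.05 with a median of 3.32. The groups did not overlap, and the margin was narrow at the point where they met. The highest control was the shallowest library, GTTTAT, whose 2 UMIs correspond to 2.13 log2 CPM, and the lowest KO library was GGCCAC with 7 UMIs, at 2.15. A lack of overlap was seen in 0.281% of the 10661 genes tested, and 0.169% had every KO library on the upper side. SERPING1 was chosen on this contrast, so nothing is read from these shares. The mean of the 11 controls was 1.31 ± 0.50 (SD) and that of the 26 KO libraries 3.33 ± 0.44 (SD), and the fitted log2 fold change was 2.52 (standard error 0.20), or 5.73-fold.

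Summed over libraries, SERPING1 gave 56 UMIs in control and 583 in KO. Pooled, these are 1.64 CPM (95% exact Poisson interval 1.24 to 2.13, counting error only) and 9.68 CPM (8.91 to 10.5). The gene thus passed the count filter through the KO group: 25 KO libraries and 0 controls reached the 4.39 CPM that the filter asks of 11 libraries. In control, the variance of the counts was 1.08 times that of counting alone, so spread beyond counting was not detectable at this depth. Among the KO libraries the ratio was 1.83. The well barcodes differ in base content between the groups: 8 control and 12 KO libraries have AT-rich barcodes (at most 2 G or C), and 1 and 12 have GC-rich ones (at least 4). Among AT-rich barcodes alone, the KO libraries lay between 2.40 and 3.83 log2 CPM and the controls between 0.65 and 2.13. The 12 KO libraries with GC-rich barcodes spanned 2.15 to 4.05, and the only GC-rich control was at 1.64. Without GGCCAC the log2 fold change was 2.55.

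**Figure D1:**
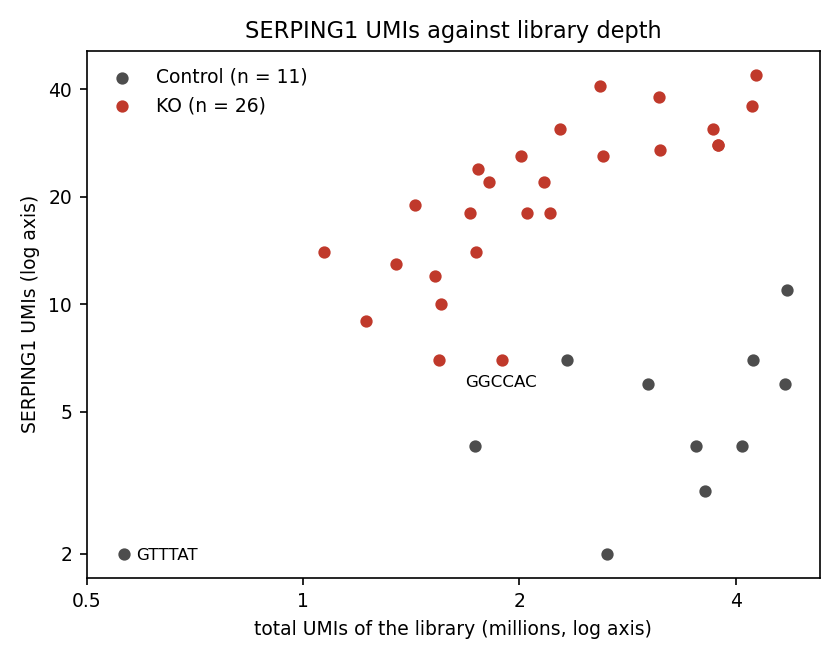
UMIs of SERPING1 against the total UMIs of each library, both on log axes, for 11 control and 26 KO libraries. At like depth the KO libraries hold more SERPING1 UMIs, and GTTTAT (2 UMIs) and GGCCAC (7 UMIs) are the libraries where the groups come closest after scaling.

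Of the 5 other regulators, 2 passed an adjusted p of 0.05 in edgeR, CD46 upward and C1QBP downward, against 33.8% of all tested genes (17.7% higher and 16.2% lower in KO). None of the 5 also exceeded an absolute log2 fold change of 0.5, which 10.2% of all tested genes did (6.65% higher and 3.53% lower in KO). Their median log2 fold change was 0.08, and that of all tested genes -0.0046.

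CD46 (ENSG00000117335, chromosome 1, 207752037 to 207795513, plus strand), the membrane cofactor protein, was abundant in both groups. Control libraries held 105 to 813 UMIs, or 7.16 to 7.85 log2 CPM with a median of 7.51. KO libraries held 204 to 1039 UMIs, or 7.31 to 8.13 with a median of 7.79. The groups overlapped: 8 KO libraries lay above the highest control, CGGTGG, and 18 within the control range. CD46 rose by 0.26 on the log2 scale (standard error 0.07, edgeR adjusted p = 0.00362), which is 1.20-fold. Within AT-rich barcodes the medians were 7.48 in 8 control and 7.79 in 12 KO libraries (log2 fold change 0.28, edgeR adjusted p = 0.00522).

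CD55 (ENSG00000196352, chromosome 1, 207321519 to 207386804, plus strand), decay-accelerating factor, lies near CD46 in the cluster of complement regulator genes of that chromosome. Control libraries ranged from 6.19 to 6.70 log2 CPM with a median of 6.43, and KO libraries from 5.88 to 6.88 with a median of 6.51. The KO range was the wider, with 4 KO libraries above every control and 4 below every control. The log2 fold change was 0.03 (standard error 0.08, edgeR adjusted p = 0.819). Its sign was not stable: among AT-rich barcodes alone it was -0.12, with KO libraries at a median of 6.29 and controls at 6.40, while the 12 GC-rich KO libraries had a median of 6.63. Across the KO libraries CD55 ran against the mitochondrial share (Spearman rho -0.58, n = 26), whose part in its level was not tested.

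CD59 (ENSG00000085063, chromosome 11, 33703010 to 33736479, minus strand), protectin, was at 7.09 to 7.55 log2 CPM in control with a median of 7.30 and at 7.07 to 7.70 in KO with a median of 7.44. Of the KO libraries 20 lay within the control range, 5 above it and 1 below. The log2 fold change was 0.08 (standard error 0.06, edgeR adjusted p = 0.299). In GENCODE release 44 a protein-coding locus on the same strand, ENSG00000284969, shares part of its span and has no row of its own in the table.

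CLU (ENSG00000120885, chromosome 8, 27596917 to 27614700, minus strand) was scarce. Control libraries held 0 to 35 UMIs with a median of 4, and KO libraries 2 to 19 with a median of 7. The level ranged from -0.35 to 3.07 log2 CPM in control and from 0.76 to 3.18 in KO, and 25 of 26 KO libraries fell within the control range. The log2 fold change of 0.68 (standard error 0.31) missed the threshold (edgeR adjusted p = 0.0840). The result turned on control libraries with much CLU. Without ATATAG, which held 35 UMIs, the log2 fold change was 1.20 (edgeR adjusted p = 0.00228), and without GGGATT, with 15 UMIs, it was 0.86 (edgeR adjusted p = 0.0349). limma-voom, which was applied to the same libraries, gave 1.02 (adjusted p = 0.00956). The control counts varied 8.03 times as much as counting alone, and the KO counts 2.02 times.

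C1QBP (ENSG00000108561, chromosome 17, 5432777 to 5448830, minus strand) was the most abundant of the 6. Control libraries held 192 to 1461 UMIs, or 8.21 to 8.60 log2 CPM with a median of 8.34. KO libraries held 325 to 1275 UMIs, or 7.93 to 8.46 with a median of 8.21. No KO library lay above the highest control, and 13 of 26 lay below the lowest. C1QBP fell by 0.19 on the log2 scale (standard error 0.05, edgeR adjusted p = 0.00139), to 0.877 of the control level. At its 3′ end the annotation places a same-strand lncRNA, ENSG00000263272 (5425139 to 5432876), that shares 100 bases with it and collected more UMIs, 35108 in all. This lncRNA, singled out after its counts were seen, fell by 0.30 on the log2 scale (standard error 0.06, edgeR adjusted p = 1.24e-04), and 24 of 26 KO libraries lay below its lowest control. How reads of C1QBP were divided between both entries cannot be told from the counts. In the sum of both, added after the data were seen and not tested, the 11 controls had a mean of 9.55 ± 0.09 log2 CPM (SD) and the 26 KO libraries one of 9.29 ± 0.15 (SD), a difference of -0.26, with 20 KO libraries below the lowest control. RPAIN, on the opposite strand of the same end, had a log2 fold change of 0.01 (edgeR adjusted p = 0.933).

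The RefSeq promoter table (GRCh38.p14) matched CD46, CD55, CD59 and C1QBP. The 250 bases before the RefSeq start of the gene are printed for CD46 and C1QBP, the regulators that passed the test, on the strand of the gene, 5′ to 3′, at chr1:207751788-207752037 and chr17:5439156-5439405. Capitals mark GACCC, the core letters bound by the ZBTB7A zinc fingers, or GGGTC on the other strand.
CD46: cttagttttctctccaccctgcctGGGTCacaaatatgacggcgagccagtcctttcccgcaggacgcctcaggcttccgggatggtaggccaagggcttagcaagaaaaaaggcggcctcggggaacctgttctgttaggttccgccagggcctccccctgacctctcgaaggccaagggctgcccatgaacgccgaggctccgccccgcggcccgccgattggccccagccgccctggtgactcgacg
C1QBP: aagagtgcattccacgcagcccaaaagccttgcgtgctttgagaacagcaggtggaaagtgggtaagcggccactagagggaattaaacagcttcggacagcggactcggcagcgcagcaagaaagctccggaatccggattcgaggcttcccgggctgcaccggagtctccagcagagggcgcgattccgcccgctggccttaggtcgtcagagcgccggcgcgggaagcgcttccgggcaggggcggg
The motif occurred 1 time in the CD46 window, 226 bases before the start, and not in that of C1QBP. It was also in the windows of CD55 and CD59, 1 time each, which did not pass the test. The CD55 window runs into the GENCODE span of CD55, and its match, 50 bases before the RefSeq start, lies inside that span. The C1QBP window lies inside the GENCODE span of that gene, so the bases before its GENCODE start were not searched. Windows of 250 bases held it in 41.8% of all 27305 promoters and in 49.8% of the 8137 promoters of tested genes.

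The 6 regulators kept the same order of mean counted level in both groups. C1QBP was above CD46 in all 11 control and all 26 KO libraries, by 0.86 ± 0.16 (SD) and 0.41 ± 0.21 log2 units. CD46 and CD59 differed by less than their spread in control (0.19 ± 0.27, CD46 higher in 9 of 11), and in KO CD46 was higher in 23 of 26 libraries (0.36 ± 0.34). CD59 was above CD55 in every library of either group, by 0.90 ± 0.16 and 0.95 ± 0.29. A wide gap followed, with CD55 above SERPING1 by 5.11 ± 0.56 log2 units in control and 3.12 ± 0.47 in KO. SERPING1 and CLU did not differ beyond their spread in control (0.13 ± 1.16, SERPING1 higher in 6 of 11), whereas in KO SERPING1 was higher in 24 of 26 libraries (1.21 ± 0.68). Even in KO, the counted level of SERPING1 thus stayed below that of CD55 in every library.

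Within a group the regulators did not move as 1 block. Their 15 pairs are described by Spearman's rho of the levels, which share library depth and scaling. Some libraries may also share a clone, so libraries of a group are not known to be independent. Over the 26 KO libraries SERPING1 had rho between -0.07 (CD46) and 0.29 (CD55) with the other 5. CD46 and CD59 ran in opposite directions (-0.54), as did CD59 and C1QBP (-0.51), while CD59 and CLU ran together (0.52). CD59 also ran against the library total (-0.55), whose part in these pairs was not tested. Over the 11 control libraries CD55 and CLU gave 0.78 and CD46 and CD59 -0.17. The counts of CD46, CD59, CD55 and C1QBP varied 4.99 to 9.27 times as much as counting alone among KO libraries, and 2.27 to 11.2 times among controls. For these genes libraries of 1 group thus differed beyond counting.

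Most of the complement cascade was scarce in these libraries. Of 63 complement genes listed by function beside SERPING1, the 5 members included, 46 had a row and 15 passed the count filter. ITGAM passed it through 11 KO and 0 control libraries, so it is left out of the counts. Of the other 14, 5 had an adjusted p below 0.05 in edgeR, against 33.8% of all tested genes, and 2 were past both thresholds, both higher in KO, against 10.2%. The C1 proteases that C1 inhibitor traps had few UMIs: C1R had 0 to 3 UMIs per control and 0 to 2 per KO library, and C1S 2 to 8 and 0 to 9. Genes under the filter, these included, have no test result here, so whether they differ between the groups is not described. C4A and C4B never exceeded 1 UMI, and how reads that match both genes were counted is not stated. C3, the central component, had 5 to 95 UMIs in control and 19 to 95 in KO, with a log2 fold change of 0.12 (edgeR adjusted p = 0.418).

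The genes past both thresholds were C9 and C3AR1. C9, the pore-forming component whose insertion CD59 blocks, ranged from 1.37 to 5.07 log2 CPM in control and from 2.96 to 6.47 in KO, with 19 KO libraries above the highest control (log2 fold change 1.44, standard error 0.38, edgeR adjusted p = 0.00367). ITGAM, the alpha chain of complement receptor 3, had 1 to 14 UMIs in control and 0 to 34 in KO libraries. Its log2 fold change was 1.23 (standard error 0.32), with 15 KO libraries above every control and 1 below. Since the filter fixed its direction, this is a description with no test. Its partner chain ITGB2 stayed under the filter with at most 9 UMIs. C3AR1, the C3a receptor, was just past the fold threshold at 0.51 (standard error 0.16, edgeR adjusted p = 0.0115), and only 4 KO libraries lay above its highest control. CALR, a chaperone that also binds C1q, rose by 0.24 (edgeR adjusted p = 0.0166).

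Of 33 serpins listed beside SERPING1, 8 were tested, 6 passed an adjusted p of 0.05 in edgeR (5 higher, 1 lower), against 33.8% of all tested genes, and 4 were past both thresholds, all higher in KO, against 6.65%. The median log2 fold change of the 8 was 0.58. SERPINH1, the collagen chaperone HSP47, was above the highest control in all 26 KO libraries, at 7.16 to 7.49 log2 CPM in control and 7.66 to 8.50 in KO (log2 fold change 0.77, standard error 0.07, edgeR adjusted p = 5.59e-12). SERPINF1 (0.96) and SERPINI1, neuroserpin (0.82), had edgeR adjusted p-values of 1.25e-04 and 1.30e-04. SERPINB1, an inhibitor of neutrophil proteases, fell by 0.34 (edgeR adjusted p = 0.00367), and SERPINB6 rose by 0.39 (edgeR adjusted p = 1.85e-05). GGCCAC was the lowest KO library for SERPINH1, SERPINF1, SERPINI1 and SERPINB6.

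Of the 12 listed contact and kinin genes, 5 were tested and 3 were past both thresholds (2 higher and 1 lower in KO), against 10.2% of all tested genes. F12, which encodes factor XII, a target of C1 inhibitor once active, fell by 0.52 (edgeR adjusted p = 3.96e-04), while PLAT, tissue plasminogen activator, rose by 1.29 (edgeR adjusted p = 0.0226). PLAT no longer passed with barcode class as a covariate (log2 fold change 1.27, edgeR adjusted p = 0.0545).

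None of the genes that make or attach the anchor of CD55 and CD59 was past both thresholds. Of 28 listed GPI genes, 24 were tested, 6 passed an adjusted p of 0.05 in edgeR and 0 were past both thresholds, against 33.8% and 10.2% of all tested genes, so the share that passed was not above the background. PIGT, a transamidase subunit, rose by 0.21, and PIGG, PIGL, PIGP, DPM2 and DPM3 fell by 0.21 to 0.36 on the log2 scale. The median of the 24 was -0.10.

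**Figure D2:**
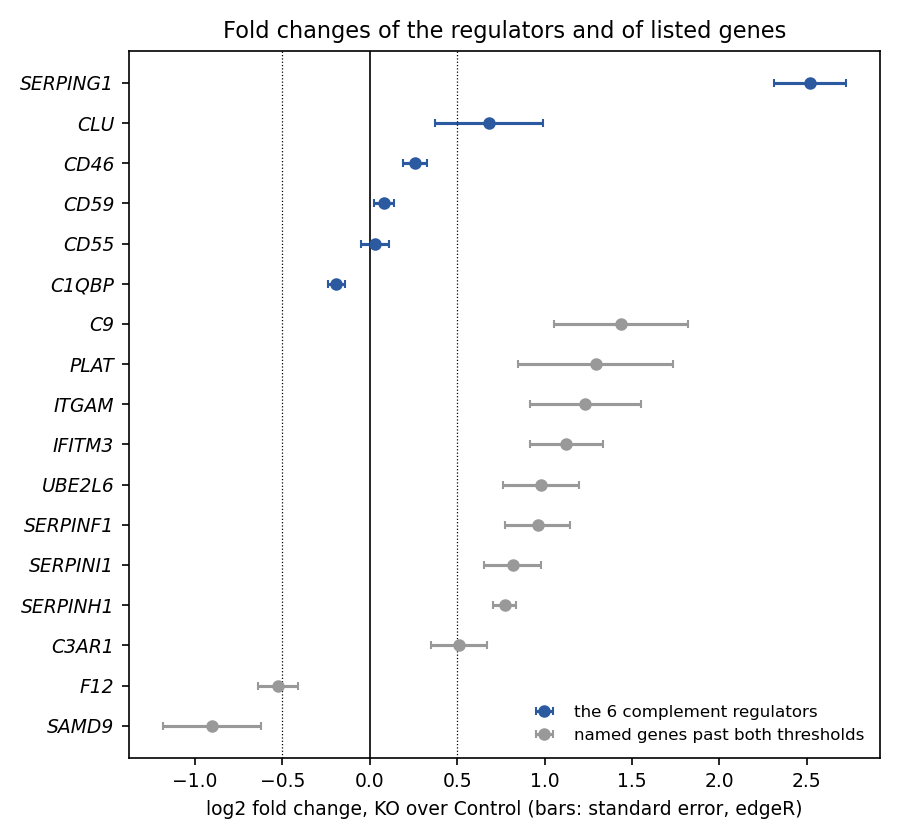
Log2 fold change of KO over control with its standard error for the 6 regulators (blue) and for listed genes past both thresholds that are named in the text (grey, with ITGAM, which met the filter through KO libraries alone), with dotted lines at -0.5 and 0.5. SERPING1 at 2.52 is given as the basis of the choice, and the other regulators lie between -0.19 and 0.68.

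SERPING1 is inducible by interferon in many cells, so interferon response genes were listed as well. Of 36 listed, 11 were tested and 6 passed an adjusted p of 0.05 in edgeR, 3 in each direction, against 33.8% of all tested genes (17.7% higher, 16.2% lower), with a median log2 fold change of -0.04 over the 11. IFITM3, an antiviral membrane protein, rose by 1.12 (edgeR adjusted p = 7.13e-05) and UBE2L6 by 0.98. STAT2 rose by 0.25 (edgeR adjusted p = 0.0475). ISG15 fell by 0.39 (edgeR adjusted p = 0.0129), IFI35 by 0.42 (edgeR adjusted p = 0.0418) and SAMD9 by 0.90 (edgeR adjusted p = 0.0111). The 11 tested genes thus did not shift in 1 direction. Past both thresholds were 3 (2 higher and 1 lower in KO), against 10.2% of all tested genes. The other listed genes were absent or under the filter, so the list as a whole is not described. A part of interferon in the rise of SERPING1 was not tested.

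UBE2L6 (chromosome 11, 57551656 to 57568284, minus strand), the E2 enzyme of ISG15 conjugation, is also the tested gene whose start is closest to that of SERPING1. Both genes point away from each other across a gap of 29103 bases. UBE2L6 held 11 to 118 UMIs in control and 32 to 258 in KO libraries, or 3.94 to 4.92 log2 CPM with a mean of 4.58 ± 0.29 (SD of 11 libraries) and 4.43 to 6.65 with a mean of 5.44 ± 0.66 (SD of 26). Above the highest control lay 18 KO libraries, and the log2 fold change was 0.98 (standard error 0.22, edgeR adjusted p = 6.12e-04). Among AT-rich barcodes alone it was 0.68 (edgeR adjusted p = 0.0428). Over the KO libraries UBE2L6 and SERPING1 ran together with rho 0.61, and over the controls, where SERPING1 had few UMIs, rho was -0.12. UBE2L6 ran as closely with CD55, at 0.61 over the KO and 0.68 over the control libraries. Which libraries share a clone is not stated, and the part of shared clones in these rho values was not tested.

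**Figure D3:**
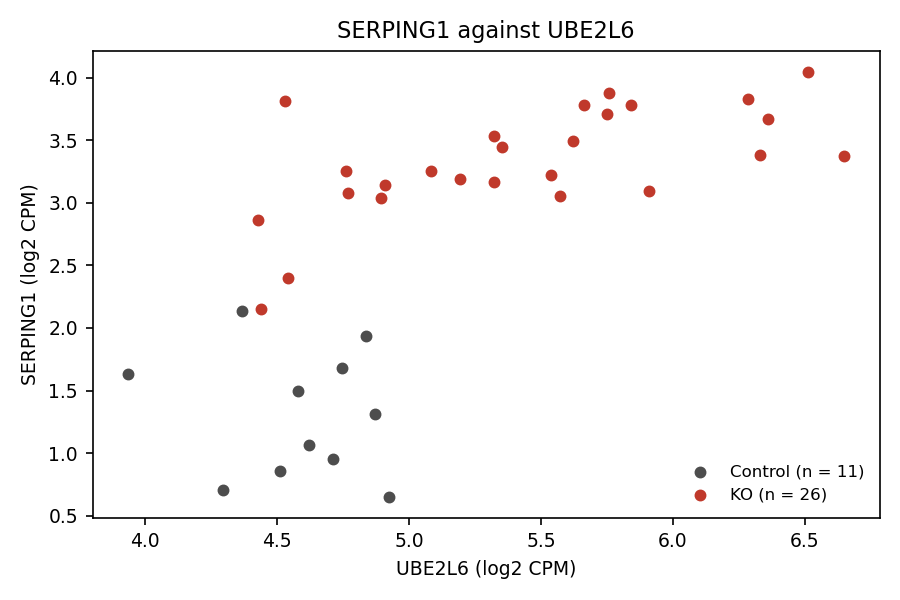
SERPING1 against its neighbour UBE2L6, both in log2 CPM, 1 point per library for 11 control and 26 KO libraries. Within KO the genes run together (rho 0.61), and the controls lie below all KO libraries on the SERPING1 axis.

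The other tested neighbours changed less. TIMM10, a mitochondrial import chaperone beyond UBE2L6, fell by 0.26 (edgeR adjusted p = 3.74e-05), and SLC43A1 had a log2 fold change of -0.10 (edgeR adjusted p = 0.379). On the other side CLP1 was at 0.07 (edgeR adjusted p = 0.438), and ZDHHC5 and MED19 rose by 0.18 (edgeR adjusted p = 9.05e-04) and 0.36 (edgeR adjusted p = 3.23e-04). UBE2L6 was the only 1 of these 6 past both thresholds. Its promoter is printed in the same way (chr11:57567936-57568185, minus strand), as the neighbour that rose with SERPING1. The window held no GACCC or GGGTC, and it lies inside the GENCODE span of UBE2L6.
UBE2L6: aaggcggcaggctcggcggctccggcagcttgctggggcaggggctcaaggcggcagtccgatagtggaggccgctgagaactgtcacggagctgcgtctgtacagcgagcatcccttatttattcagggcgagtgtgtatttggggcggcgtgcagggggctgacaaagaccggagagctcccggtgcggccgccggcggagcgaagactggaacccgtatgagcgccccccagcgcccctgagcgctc

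**Figure D4:**
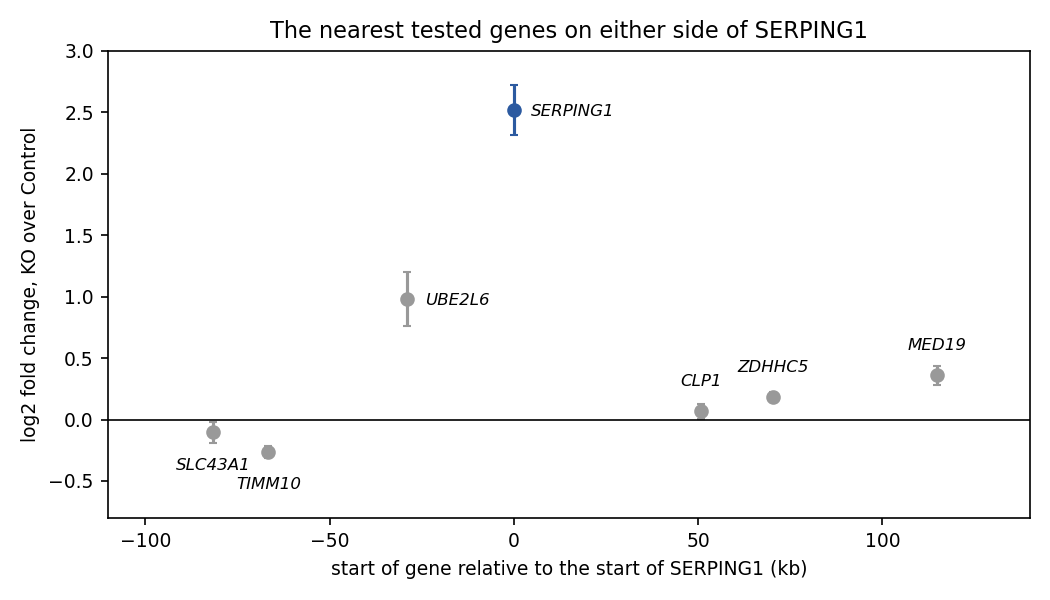
Log2 fold change of KO over control with its standard error for SERPING1 (blue) and the 3 nearest tested genes on either side (grey), placed by the distance of their starts from the start of SERPING1 in kb. UBE2L6 at 0.98 stands above the other 5 neighbours, which lie between -0.26 and 0.36.

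Likeness to SERPING1 was ranked by Spearman's rho of the levels across the 26 KO libraries, over 8573 genes whose mean reached 10 CPM. The highest were PYGL, MAPK14, FEM1C, DUSP3 and CLTCL1, at 0.64 to 0.66. UBE2L6 ranked number 12. The lowest rho belonged to WASL-DT (-0.69), URGCP-MRPS24 (-0.65), a readthrough gene that can share reads with its parts, and MED29 (-0.64). Over the 11 controls rho of these first 5 genes lay between -0.39 and 0.27. Their log2 fold changes ranged from -0.37 for PYGL, the liver type of glycogen phosphorylase, to 0.35 for DUSP3, a dual specificity phosphatase (edgeR adjusted p = 0.0163 and 0.0171). The ranking rests on 7 to 44 UMIs of SERPING1 per library and on shared depth and scaling, and it is given as a description. Libraries that share a clone are not known, and their part in the ranking was not tested.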

How the data were processed

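Bulk SCRB-seq libraries of K562 cells (26 KO, 11 Control) were analysed. The authors mapped reads to hg38 with STAR (version 2.6.0a in the submitters' processing notes), used zUMIs with the Ensembl GRCh38.84 annotation, and deposited raw UMI counts of 32055 genes. The version of zUMIs is not given in the sources used here. UMIs remove PCR copies, and intervals cover counting error only. Columns were matched to samples by the barcode in the label, and symbols (31323 identifiers) and positions came from GENCODE release 44, which is later than the annotation counted.

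All genes were fitted in R 4.3.3 with edgeR 4.0.16 (default count filter, TMM, robust quasi-likelihood test, group as the only term), with Benjamini-Hochberg adjustment over 10661 genes. Genes past both thresholds had an adjusted p under 0.05 and a log2 fold change beyond 0.5 in either direction, the limits of the study. Standard errors were obtained from each fold change and the root of its F statistic. The fit was tested on simulated counts. Barcodes with at most 2 G or C were called AT-rich and those with at least 4 GC-rich.

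Members and gene lists were chosen with earlier results of these data known. Named were the 6 members, listed genes past both thresholds, the 5 genes most and the 3 least like SERPING1, its 3 nearest tested genes on either side, and markers. Other listed genes and ENSG00000263272 were named after their values were seen, and some listed genes are counted but not reported here by name. Alternatives were limma-voom (limma 3.58.1, the package of the study), DESeq2 1.42.0, scaling by RLE or by totals, the fit unfiltered or limited to genes whose mean reached 10 CPM, AT-rich barcodes alone, a term for barcode class, all libraries thinned to 563235 UMIs, and each library left out.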

Additional observations from a re-analysis of the deposited data

How the results depend on the processing

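Over all tested genes, 1085 were past both thresholds. The count was 1720 with no filter on low counts, 672 among genes whose mean reached 10 CPM and 627 when thinned to the smallest total. Of listed genes, 12 were past both thresholds, ITGAM included, and 5 after thinning. CD55 reversed to -0.045 with barcode class as covariate and to -0.12 among AT-rich barcodes alone. CLU was past the adjusted p of 0.05 under limma-voom (1.02), and with each library left out its log2 fold change ranged from 0.57 to 1.20. With each library left out, SERPING1 ranged from 2.44 to 2.62, CD46 from 0.23 to 0.30 and C1QBP from -0.20 to -0.16, and CD46 and C1QBP kept their direction and an adjusted p below 0.05 in each of these fits. The same held for both under the other alternatives listed. C3AR1 and F12 lay just past the fold threshold and missed it when single libraries were left out (down to 0.47 and to -0.45), F12 also under limma-voom (-0.49) and library size alone (-0.49), and C3AR1 with no filter (0.49). ITGAM had a value in 26 of the 37 fits that leave out a library, since 11 KO libraries carried it over the filter. PLAT also missed the adjusted p of 0.05 under limma-voom (0.0767) and without a filter (0.0619). The cause of these changes was not tested. SERPING1 and CLU were under the filter when libraries were thinned or a mean of 10 CPM was asked, and CLU also among AT-rich barcodes, so they have no value there. With 2 to 11 UMIs per control library, counting limits what can be said of SERPING1 among controls. No paired analysis was possible because the labels match no KO library to a control library.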
